A study of Mus musculus with 6 samples.

Results

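The genes of respiratory complex I were followed on 6 one-colour mouse arrays of RNA recovered from germ cells grown in culture. Members were the 37 genes whose probes carry a gene name of the Ndufa, Ndufb, Ndufc, Ndufab, Ndufs, Ndufv or Ndufaf families, out of 14993 genes tested. They were read by 52 probes, of which 3 were above background on no array. Each gene was represented by its probe with the highest mean log2 signal over the 6 arrays. The names place 10 members in the Ndufs and Ndufv families, 26 in the Ndufa, Ndufb, Ndufc and Ndufab families, and 1, Ndufaf1, among the assembly factors. The chosen probe of all 37 genes was well above background on all 6 arrays, so none was lost to the filter on dim probes.

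The groups were RNA recovered with an antibody to GFP (GFP IP, 2 arrays), RNA recovered with an antibody to PABP1 (PABP1 IP, 2 arrays) and total RNA with no antibody (input, 2 arrays). All 3 came from cells labelled as primordial germ cells, made from Dazl-GFP-V5 embryonic stem cells of the V6.5 line, strain C57BL/6 129SV mixed, after 12 days in differentiation medium. Every group, input included, therefore carries the tagged Dazl, and no array of untagged cells was analysed here. RNA-protein complexes were crosslinked with ultraviolet light before the IP, and PABP1 IP and input are the study's controls.

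Complex I takes electrons from NADH, passes them along a chain of iron-sulphur clusters to ubiquinone and pumps protons across the inner mitochondrial membrane. Its matrix arm is built from an N module, where NADH is oxidised, and a Q module, where ubiquinone is reduced, and its membrane arm has a proximal and a distal part. The catalytic core is encoded partly by nuclear and partly by mitochondrial DNA, and the nuclear-encoded accessory subunits surround it, while assembly factors help to build it without staying in it. DAZL binds RNA in germ cells and PABP1 binds the poly(A) tails of mRNAs, so the arrays report how much of each subunit's mRNA was recovered with either protein, not the amount of protein or the activity of the complex.

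RefSeq's promoter table (GRCm38.p6) held a window of 300 bases around the annotated start for 33 of the 37 genes, matched by symbol. Short motifs named for factors known to act on respiratory genes were searched on both strands. The NRF1 letters GCGCATGC were found in 3 members (9.09%, against 3.05% of 27025 genes with a window), the ETS letters CCGGAAG in 5 (15.15%, against 9.93%) and the YY1 letters AAGATGGC in 7 (21.2%, against 3.19%). The YY1 letters contain ATG, the letters of a start codon, and begin with the AAG in which the ETS letters end, so these motifs can overlap. No member held more than 1 of the 3 motifs, and 15 members (45.45%, against 14.9%) held any. Windows are shown for Ndufa3 and Ndufs6, the members with the largest differences between the GFP and PABP1 IPs on the 75th-percentile scale, and for Ndufc2, the exception among the members. Capitals mark the YY1 letters, and the Ndufc2 window holds none of the 3 motifs. The Ndufa3 window is chr7:3617123-3617422 on the plus strand, the Ndufs6 window chr13:73328433-73328732 on the minus strand and the Ndufc2 window chr7:97399753-97400052 on the plus strand.
Ndufa3: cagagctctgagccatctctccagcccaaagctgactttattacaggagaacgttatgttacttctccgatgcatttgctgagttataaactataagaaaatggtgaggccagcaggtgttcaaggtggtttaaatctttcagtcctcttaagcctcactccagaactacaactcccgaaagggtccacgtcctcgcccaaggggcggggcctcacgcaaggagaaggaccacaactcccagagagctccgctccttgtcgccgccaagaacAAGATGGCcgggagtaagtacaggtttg
Ndufs6: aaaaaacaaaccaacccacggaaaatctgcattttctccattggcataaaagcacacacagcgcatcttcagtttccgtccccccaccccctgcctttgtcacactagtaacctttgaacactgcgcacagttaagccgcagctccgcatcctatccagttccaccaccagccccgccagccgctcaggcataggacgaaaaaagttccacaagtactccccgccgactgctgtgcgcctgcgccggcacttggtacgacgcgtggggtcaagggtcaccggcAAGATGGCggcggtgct
Ndufc2: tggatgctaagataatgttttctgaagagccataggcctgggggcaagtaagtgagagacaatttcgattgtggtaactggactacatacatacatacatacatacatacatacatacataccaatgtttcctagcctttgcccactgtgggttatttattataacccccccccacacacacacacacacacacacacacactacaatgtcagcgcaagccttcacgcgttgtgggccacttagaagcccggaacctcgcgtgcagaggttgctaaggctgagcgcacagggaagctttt

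The depth of the arrays and markers of cell types were read first. Between 41.5% and 52.6% of the spots of an array were well above background, 0 were saturated, and the 75th percentile of the signal stood at 158 and 163 on the GFP IP arrays, 105 and 146 on the PABP1 IP arrays and 63.6 and 75.4 on the input arrays. Signals below are given as multiples of that percentile (scaled signal). Of 11 germ cell markers 9 were measured. Ddx4 was well above background on 2 of the 6 arrays and was not tested, and Prdm14 was not found under that symbol. Of these 9, 6 were higher and 1 was lower in the GFP IP against input, where 18.2% of all genes were higher and 37.1% lower. The 6 include Dazl itself (3.78), the tagged gene. Their count with spike-in scaling is not given here. Some markers of other cells that such cultures can hold were also low in the GFP IP: of 9 measured cardiac and smooth muscle markers (of 12 listed; Myh6 and Ryr2 were above background on no array) 0 were higher and 8 lower in the GFP IP against input (1 lower with spike-in scaling). Their summed scaled signal was 29.7 and 39.3 on the GFP IP arrays, 178 and 193 on the PABP1 IP arrays and 80.5 and 96.3 on the input arrays. Most of the PABP1 IP sum came from Myl7 (82.9 and 77.4) and Tagln (65.0 and 84.9). In the PABP1 IP against input 2 of the 9 were higher (30.4% of all genes), 2 lower (23.5%) and 5 did not pass. Their median log2 difference there was 0.18, against 0.13 over all genes. All 4 fibroblast markers were also lower in the GFP IP against input (0 with spike-in scaling). Their sums were 29.98 and 53.02 in the GFP IP, 117 and 98.01 in the PABP1 IP and 89.1 and 120.1 in input. In the PABP1 IP against input 0 of the 4 passed, where 53.9% of all genes did. Of 3 measured neural markers 1, Tubb3, was higher (1.77, adjusted p = 0.00545) and 1 was lower in the GFP IP against input, and 5 of 7 visceral endoderm markers were above background on no array. The part of other cells in the results below was not tested. In bulk RNA fewer cells of a type, less RNA per cell and lower recovery of an mRNA with an antibody cannot be told apart.

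Slide 1 held GFP IP replicate 2, PABP1 IP replicate 1 and both inputs, and slide 2 held GFP IP replicate 1 and PABP1 IP replicate 2. The labels do not say that replicates came from separate cultures, so the p-values cover no more than the spread among these arrays, whose number limits the precision. The 3 comparisons share arrays and are therefore given side by side. Errors (±) are limma's standard errors, with 2 arrays in each group, and adjusted p-values are Benjamini-Hochberg values over all genes tested, with a threshold of 0.05.

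Taken as a family, the complex I mRNAs were low in the GFP IP and high in the PABP1 IP, with input between them on the scale of the 75th percentile, while with spike-in scaling their median in the GFP IP was close to that in input. The summed scaled signal of the 37 members was 2538 and 2637 on the GFP IP arrays, 14236 and 9892 on the PABP1 IP arrays, and 6829 and 6337 on the input arrays. In the GFP IP against the PABP1 IP, 35 members were lower (42.1% of all genes were), 0 were higher (21.9% of all genes) and 2, Ndufs1 and Ndufc2, did not pass (in all, 63.9% of all genes passed). The median log2 difference was -2.31, against -0.61 over all genes. Both GFP IP arrays lay below both PABP1 IP arrays for the same number of members, 35 (53.6% of all genes), and the lowered count was 27 to 36 under the 17 alternative settings. Within slide 1 the median of the single difference between the GFP IP and the PABP1 IP array was -2.57 and within slide 2, which holds different arrays, -2.23, with 35 members below 0 on each slide. Over the 37 members the 2 slides' differences correlated at 0.967 (Pearson) and 0.906 (Spearman), as a description of arrays that share the probes.

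In the GFP IP against input, 28 members were lower (37.1% of all genes) and 1 was higher (18.2% of all genes), with 8 not past the threshold (in all, 55.3% of all genes passed), but 0 were lower with spike-in scaling. The median log2 difference was -1.22, against -0.52 over all genes. Both GFP IP arrays lay below both input arrays for 33 members (56.4% of all genes), above for 1 (26.5%) and overlapped for 3. With spike-in scaling the median of all genes shifted by 1.02, to 0.50. The members' median was then -0.21, with 22 members below 0 and 15 above. The share of all genes called is not given here for spike-in scaling or the other alternative settings. The count of members lowered was 15 after cyclic loess and 15 with the median of all probes. On slide 1 alone, which holds 1 GFP IP array and both input arrays, the members' median was -1.26, and with the slide as a block 30 were lower and 1 higher.

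In the PABP1 IP against input, 27 members were higher (30.4% of all genes), 2 were lower (23.5% of all genes; 0 with spike-in scaling) and 8 did not pass (in all, 53.9% of all genes passed). The median log2 difference was 1.25, against 0.13 over all genes. Both PABP1 IP arrays lay above both input arrays for 31 members (43.5% of all genes) and below for 3 (34.9%). On slide 1 the members' median was 1.42, and with the slide as a block 31 were higher and 1 lower. The PABP1 IP replicates were not at the same level: replicate 1 lay above replicate 2 for 31 of 37 members, by a median of 0.28 and by up to 1.15 for Ndufb11. Over all genes the median of that difference was 0.12. The PABP1 IP replicates lie on different slides, so replicate and slide cannot be told apart here.

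**Figure D1:**
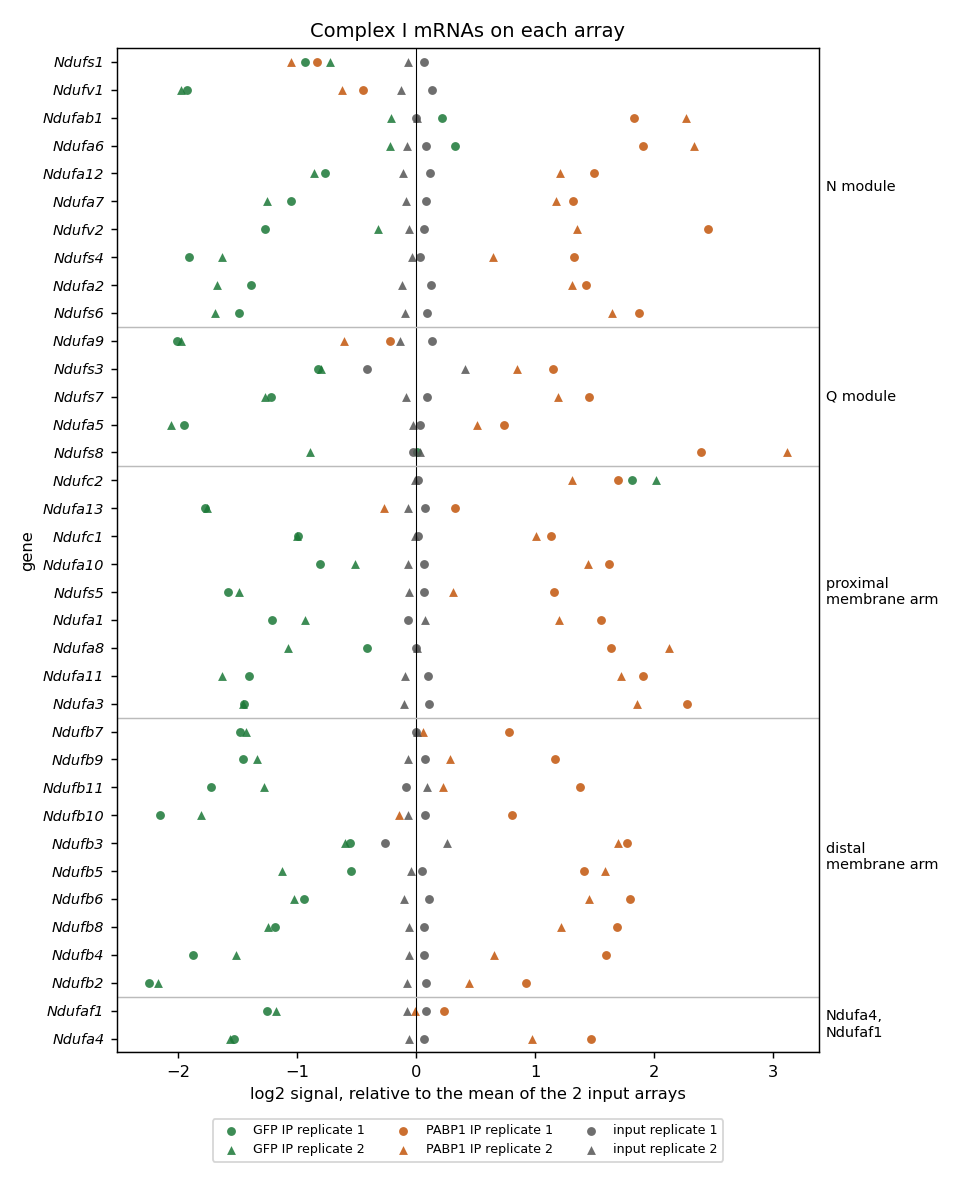
Log2 signal of 36 of the genes on each array (horizontal axis, relative to the mean of the 2 input arrays, 75th-percentile scaling), by part of the complex, with genes running down the page. GFP IP points (green) lie left of PABP1 IP points (orange) for all genes but Ndufs1, where they overlap, and Ndufc2, where both lie right of input; the place of the GFP IP points relative to input moves with the scaling, and their median is -0.21 with spike-in scaling.

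The nuclear core subunits, which carry the flavin and the iron-sulphur clusters or line the ubiquinone site, did not move alike. Between the IPs Ndufs3, Ndufs7, Ndufs8, Ndufv1 and Ndufv2 were lower in the GFP IP and Ndufs1 did not pass. In the PABP1 IP against input Ndufs3, Ndufs7, Ndufs8 and Ndufv2 were higher, while Ndufs1 and Ndufv1 were lower. The higher calls of Ndufs7 and Ndufs8 held without any 1 array, and Ndufs3 lost its call without any 1 of the arrays other than input replicate 2.

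Ndufs1, the largest core subunit and an iron-sulphur protein of the N module, had a scaled signal of 17.5 and 20.4 in the GFP IP, 18.9 and 16.2 in the PABP1 IP and 35.2 and 32.1 in input. The arrays of the 2 IPs overlapped, and both lay below input. The log2 difference was -0.83 ± 0.18 for the GFP IP against input (adjusted p = 0.0132), -0.95 ± 0.18 for the PABP1 IP against input (adjusted p = 0.00825) and 0.11 ± 0.18 for the GFP IP against the PABP1 IP (adjusted p = 0.587, 95% interval -0.33 to 0.56). With spike-in scaling these were 0.18, 1.31 and -1.13, so its direction rests on the scaling in all 3 comparisons. Ndufs1 lost its call in the GFP IP against input with spike-in scaling, normexp background, the median of all probes or cyclic loess. Between the IPs it was called higher in the GFP IP after quantile normalization (0.71, adjusted p = 0.0186) and cyclic loess (1.00, adjusted p = 0.00533) and lower with spike-in scaling (adjusted p = 0.0483). The call in the GFP IP was also lost without either input array or GFP IP replicate 1, and that in the PABP1 IP without input replicate 1. Ndufs1 had 2 probes, but the other one did not pass the filter, so only the probe used bears on it.

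Ndufv1, which binds NADH and the flavin at the entry of electrons, stood at 36.8 and 35.5 in the GFP IP, 103 and 91.1 in the PABP1 IP and 154 and 128 in input. The 3 groups did not overlap, with the GFP IP lowest and input highest. Its GFP IP signal was below input (-1.96 ± 0.17, adjusted p = 0.00184) and below the PABP1 IP (-1.42 ± 0.17, adjusted p = 0.00153), and the call against input was lost with spike-in scaling and that against the PABP1 IP after cyclic loess. Its fall in the PABP1 IP against input (-0.54 ± 0.17, adjusted p = 0.0476) lay just past the threshold and was lost without any one of the 6 arrays, and with spike-in scaling the value was 1.72.

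Ndufs8, a core subunit of the Q module that holds iron-sulphur clusters, had the largest gain of all members in the PABP1 IP on this scale; with the slide as a block (2.35, against 2.42 for Ndufv2), on slide 1 alone or without PABP1 IP replicate 2 Ndufv2 stood above it. Its scaled signal was 2.62 and 1.40 in the GFP IP, 13.7 and 22.7 in the PABP1 IP and 2.56 and 2.67 in input. Both PABP1 IP arrays were far above the other 4, while the GFP IP and input arrays overlapped. The PABP1 IP was 6.75-fold above input (log2 difference 2.75 ± 0.38, adjusted p = 0.00329) and the GFP IP 9.19-fold below the PABP1 IP (-3.20 ± 0.38, adjusted p = 0.00144). Against input the GFP IP was at -0.45 ± 0.38 (adjusted p = 0.353), and at 0.57 with spike-in scaling.

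Ndufv2, the iron-sulphur partner of Ndufv1, showed wide replicates, at 3.65 and 7.06 in the GFP IP, 48.3 and 22.4 in the PABP1 IP and 9.18 and 8.45 in input. It was higher in the PABP1 IP than in input (1.90 ± 0.47, adjusted p = 0.0211; lost without either input array or PABP1 IP replicate 1) and lower in the GFP IP than in the PABP1 IP (-2.70 ± 0.47, adjusted p = 0.00521). Ndufs7, at the ubiquinone site, was lower in the GFP IP than in input (-1.25 ± 0.17, adjusted p = 0.00389; the call was lost with spike-in scaling or scaling to the median of all probes) and higher in the PABP1 IP (1.32 ± 0.17, adjusted p = 0.00281). Ndufs3, a core subunit of the Q module, stood at 13.4 and 13.6 in the GFP IP, 52.3 and 42.4 in the PABP1 IP and 17.8 and 31.4 in input, where the 2 replicates were furthest apart. It was lower in the GFP IP than in the PABP1 IP (-1.81 ± 0.31, adjusted p = 0.00458; lost after cyclic loess).

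Ndufc2, a subunit of the proximal membrane arm, was the 1 member enriched with GFP. Its scaled signal was 258 and 298 in the GFP IP, 238 and 182 in the PABP1 IP and 74.2 and 73.2 in input. Both IPs lay well above input, and the lower GFP IP array lay just above the higher PABP1 IP array. The GFP IP was 3.76-fold above input (log2 difference 1.91 ± 0.20, adjusted p = 0.00224), and this call was kept in all 17 alternative settings, with values of 1.81 to 2.93. The PABP1 IP was 2.83-fold above input (1.499 ± 0.20, adjusted p = 0.00275). Between the IPs the log2 difference was 0.41 ± 0.20 (adjusted p = 0.117, 95% interval -0.08 to 0.91). It was 0.32 on slide 1 and 0.50 on slide 2, and it was called higher in the GFP IP with the slide as a block, normexp background, the median of all probes, quantile normalization or cyclic loess (up to 1.81). With spike-in scaling the difference turned to -0.83, so its order between the IPs rests on the scaling. Ndufc2 was read by a single probe, so no other probe of the gene bears on it.

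**Figure D2:**
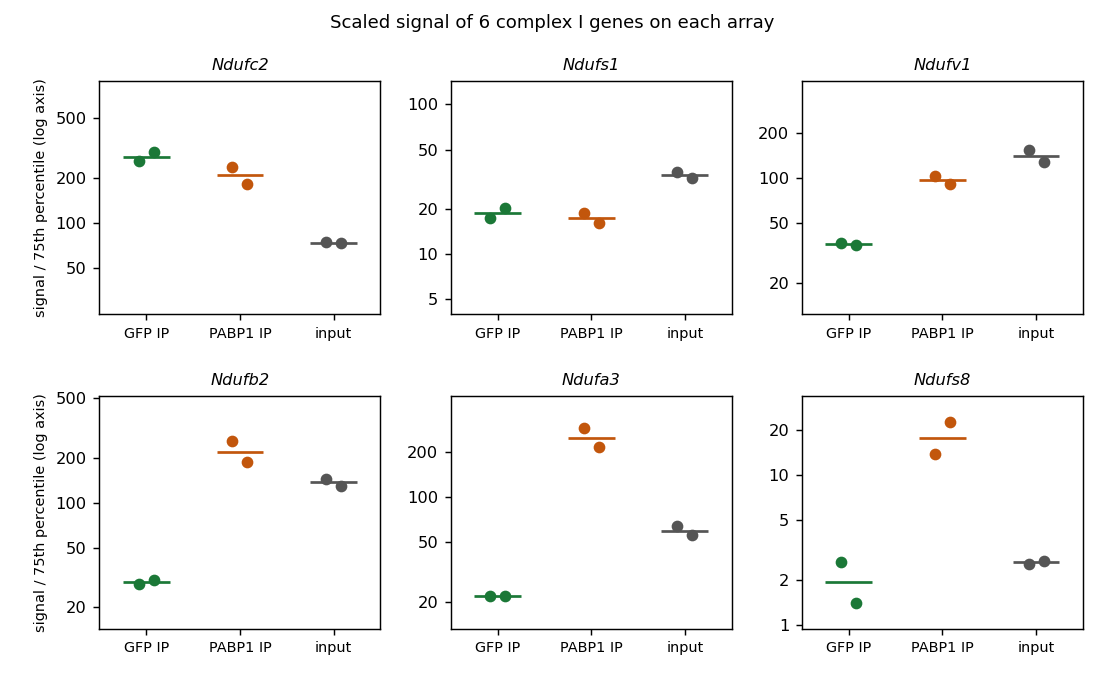
Scaled signal (multiples of the array's 75th percentile, log axis) of 6 genes, with 1 point per array and a line at the geometric mean of the 2 arrays of GFP IP, PABP1 IP and input. Ndufc2 is above input in both IPs, Ndufs1 is below input in both, Ndufv1 and Ndufb2 are lowest in the GFP IP, and Ndufa3 and Ndufs8 are highest in the PABP1 IP; with spike-in scaling Ndufs1 lies above input in both IPs and Ndufv1 above input in the PABP1 IP.

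Its partner Ndufc1 did not share that pattern. Ndufc1 had a scaled signal of 33.6 and 33.4 in the GFP IP, 147 and 135 in the PABP1 IP and 67.6 and 66.4 in input, with no overlap between groups. It was lower in the GFP IP than in input (-0.9996 ± 0.15, adjusted p = 0.00452) and than in the PABP1 IP (-2.07 ± 0.15, adjusted p = 0.000486). The call against input was lost with spike-in scaling, normexp background, the median of all probes or cyclic loess. The proximal arm as a whole had 9 members, of which 8 were lower in the GFP IP than in the PABP1 IP, with a median of -2.27.

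Ndufa3, a small subunit of the same arm, had the largest difference between the IPs on this scale, a rank that passed to Ndufs8 after quantile normalization or cyclic loess and without PABP1 IP replicate 1 or GFP IP replicate 1, and to Ndufa11 with the mean of a gene's probes. Its scaled signal was 21.96 and 21.8 in the GFP IP, 290.5 and 216 in the PABP1 IP and 64.5 and 55.6 in input. The GFP IP was 11.5-fold below the PABP1 IP (log2 difference -3.52 ± 0.20, adjusted p = 0.00046). Ndufa11, which lies where complex I touches complex III in respiratory supercomplexes, stood at 4.87 and 4.15 in the GFP IP, 48.4 and 42.5 in the PABP1 IP and 13.8 and 12.1 in input. It was 10.1-fold lower in the GFP IP than in the PABP1 IP (-3.33 ± 0.18, adjusted p = 0.00046), and its other probe gave -3.36. For Ndufa3 the dimmer probe gave -2.21 between the IPs and 0.20, against -1.45 for the probe used, between the GFP IP and input, so the 2 probes differ in sign there.

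Ndufa13, also known as GRIM-19 and linked to cell death as well as to respiration, stood at 356 and 360.1 in the GFP IP, 1533 and 1014 in the PABP1 IP and 1286 and 1160 in input. The PABP1 IP and input arrays overlapped (0.03 ± 0.24, adjusted p = 0.93), while the GFP IP arrays lay far below both. The GFP IP was below input (-1.77 ± 0.24, adjusted p = 0.00355; not past with spike-in scaling). Ndufs5, which has a twin-cysteine fold and the name of a core family but is an accessory subunit, had a similar order, at 177 and 188 in the GFP IP, 1181 and 655 in the PABP1 IP and 553 and 508 in input, and did not pass between the PABP1 IP and input (0.73 ± 0.30, adjusted p = 0.0932). It passed there with the slide as a block. Ndufa1, Ndufa8 and Ndufa10 were higher in the PABP1 IP than in input by log2 differences of 1.37, 1.88 and 1.53. Ndufa1 and Ndufa10 were lower in the GFP IP against input while Ndufa8, at -0.75, did not pass, and none of them passed there with spike-in scaling. Ndufa1 and Ndufa10 also lost that call with normexp background, the median of all probes, quantile normalization or cyclic loess. Ndufa1 lost its call without either input array, and Ndufa10 without either input array or GFP IP replicate 1.

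In the N module Ndufs6, Ndufa2 and Ndufs4 were split more strongly between the IPs than the median of all members (-2.31). The median of the 11 measured N module genes, Ndufv3 included, was -2.40. Ndufs6, a zinc-binding subunit added late in assembly, had a scaled signal of 62.0 and 53.7 in the GFP IP, 638 and 545 in the PABP1 IP and 186 and 163 in input. The 3 groups did not overlap. It was 10.2-fold lower in the GFP IP than in the PABP1 IP (log2 difference -3.35 ± 0.18, adjusted p = 0.00046), and its other probes gave -3.37 and -3.28. Ndufa2, which has a thioredoxin-like fold, was 7.45-fold lower (-2.90 ± 0.19), and Ndufs4, whose loss in mice gives a Leigh-like disease, was 6.75-fold lower (-2.75 ± 0.27). Ndufa7 and Ndufa12 were lower as well, by -2.40 ± 0.17 and -2.16 ± 0.18.

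Ndufa6 and Ndufab1 behaved otherwise. Ndufab1 is the mitochondrial acyl carrier protein and Ndufa6 the LYR-motif subunit that binds it. Ndufa6 had a scaled signal of 40.1 and 27.4 in the GFP IP, 120.0 and 162 in the PABP1 IP and 33.8 and 30.2 in input, and Ndufab1 21.6 and 16.1 in the GFP IP, 66.2 and 89.7 in the PABP1 IP and 18.6 and 18.7 in input. For both, the GFP IP and input arrays overlapped and the PABP1 IP arrays lay above them. They were higher in the PABP1 IP than in input by log2 differences of 2.12 ± 0.26 (adjusted p = 0.00234) and 2.05 ± 0.24 (adjusted p = 0.00196), and did not pass between the GFP IP and input. The other 2 kept Ndufab1 probes gave -1.53 and -1.40 in the GFP IP against input and 1.10 and 0.02 in the PABP1 IP against input, so the lack of a difference from input in the GFP IP holds for 1 of 3 probes. In Ndufa12 the kept probes also disagreed in the GFP IP against input, at -0.81 for the probe used and -0.51 and 0.03 for the others.

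Ndufa5 and Ndufa9, the accessory subunits of the Q module, were among the 5 lowest members in the GFP IP against input and were not among the highest in the PABP1 IP. Ndufa5, on the outer face of the module, stood at 46.0 and 42.8 in the GFP IP, 298 and 255 in the PABP1 IP and 182 and 175 in input. It was 4.03-fold lower in the GFP IP than in input (log2 difference -2.01 ± 0.16, adjusted p = 0.00167; not past with spike-in scaling). The PABP1 IP was above input by 0.63 ± 0.16 (adjusted p = 0.0245), a call lost without either input array or PABP1 IP replicate 1. Ndufa9, which ties the matrix arm to the membrane arm, stood at 34.1 and 34.8 in the GFP IP, 118 and 90.4 in the PABP1 IP and 151 and 125 in input, with both PABP1 IP arrays below both input arrays. It was lower in the GFP IP than in input (-2.00 ± 0.20, adjusted p = 0.00222; not past with spike-in scaling) and did not pass between the PABP1 IP and input (-0.41 ± 0.20, adjusted p = 0.144), but it was lower there after cyclic loess and after quantile normalization and higher with spike-in scaling.

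The distal membrane arm is the tip of the proton-pumping part, and all of its 10 measured genes are of the Ndufb family. All 10 were lower in the GFP IP than in the PABP1 IP, with values of -2.89 to -1.87 and a median of -2.32. Relative to input 9 were lower in the GFP IP (0 with spike-in scaling) and Ndufb3 (-0.58 ± 0.22, adjusted p = 0.0695) did not pass. Without input replicate 1 the calls of Ndufb4, Ndufb5, Ndufb6, Ndufb7, Ndufb8, Ndufb9 and Ndufb11 were lost there. Ndufb2, a small single-span membrane protein, was lowest of all 37 members in the GFP IP against input, at 28.9 and 30.4 in the GFP IP, 259 and 186 in the PABP1 IP and 145 and 129.6 in input. The groups did not overlap. It was 4.63-fold lower in the GFP IP than in input (-2.21 ± 0.21, adjusted p = 0.00204; not past with spike-in scaling) and 7.41-fold lower than in the PABP1 IP (-2.89 ± 0.21, adjusted p = 0.000499).

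Ndufb10, Ndufb11, Ndufb7 and Ndufb9 of the distal arm did not pass between the PABP1 IP and input, at log2 differences of 0.33, 0.80, 0.42 and 0.72. Their PABP1 IP replicates were far apart: Ndufb11 stood at 772 and 347 in the PABP1 IP, against 280 and 316 in input and with 89.9 and 122 in the GFP IP. With the slide as a block Ndufb9, Ndufb10 and Ndufb11 passed, each higher in the PABP1 IP. Ndufb3, Ndufb5, Ndufb6 and Ndufb8 were higher in the PABP1 IP than in input by 1.73, 1.496, 1.62 and 1.45. For Ndufb8 the dimmer probe gave 0.02 there, and between the IPs its probes gave -2.67 and -1.65. Ndufb4 (1.13 ± 0.34, adjusted p = 0.0399) and Ndufb2 (0.68 ± 0.21, adjusted p = 0.0424) passed narrowly in the PABP1 IP against input, and both calls were lost without any 1 of the arrays other than PABP1 IP replicate 2.

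The Ndufs and Ndufv genes were then set against the Ndufa, Ndufb, Ndufc and Ndufab genes, the division that gene names offer. Of the 10 Ndufs and Ndufv genes 9 were lower in the GFP IP than in the PABP1 IP, as were 25 of the 26 others, with medians of -2.42 and -2.32. Relative to input, 6 of 10 and 21 of 26 were lower in the GFP IP (0 in either class with spike-in scaling, and 17 of all members without input replicate 1), with medians of -1.04 and -1.31. For the PABP1 IP against input, 7 of 10 and 20 of 26 were higher, with medians of 0.99 and 1.36. The differences between the class medians, 0.27 in the GFP IP against input, -0.37 in the PABP1 IP against input and -0.10 in the GFP IP against the PABP1 IP, were small beside the range within each class. The first turned to -0.03 after cyclic loess and -0.02 after quantile normalization, and the last to 0.29 without PABP1 IP replicate 1, 0.12 without GFP IP replicate 1 and 0.02 after cyclic loess.

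Ndufs4, Ndufs5 and Ndufs6 are accessory subunits despite their names. The 7 true core subunits were set against the 29 other members named as subunits, Ndufa4 included and Ndufaf1 left out. The medians were -0.81 and -1.45 in the GFP IP against input and 0.99 and 1.35 in the PABP1 IP against input. In the GFP IP against the PABP1 IP they were -1.81 and -2.33. The differences between these medians, 0.64, -0.35 and 0.53, kept their sign under all 17 alternative settings, but were 0.13, -0.02 and 0.10 after quantile normalization, and the middle one was -0.01 without input replicate 2. They were not tested. The core genes include Ndufs1 and Ndufv1, the 2 members lower in the PABP1 IP than in input.

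**Figure D3:**
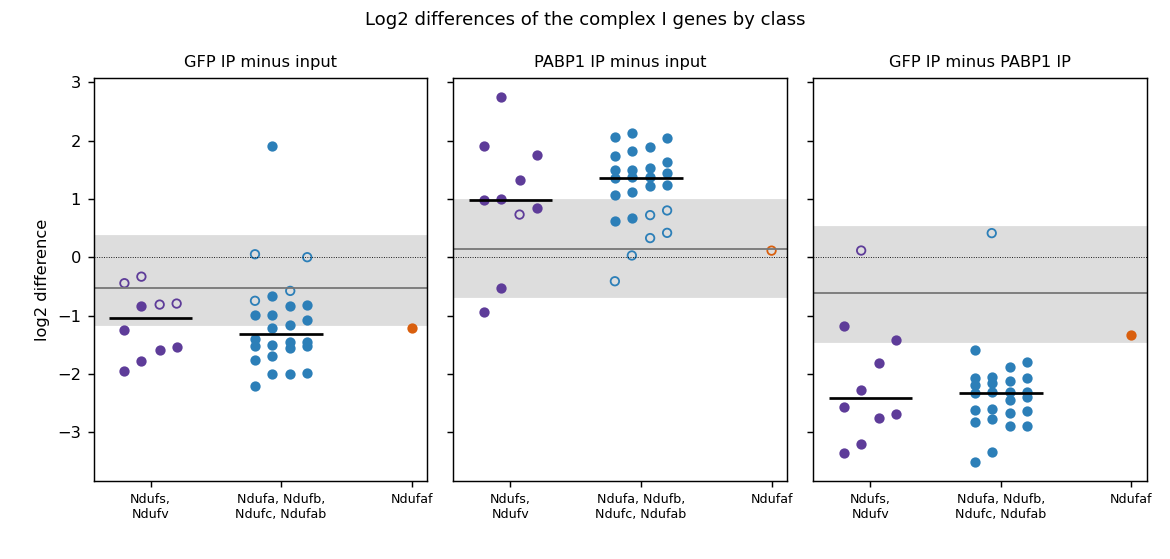
Log2 difference of each gene (vertical axis) by gene-name class in the 3 comparisons, filled where adjusted p was under 0.05; black lines are class medians, the grey line is the median of all 14993 genes and the grey band their quartiles. Nearly all genes of both classes lie below the band in GFP IP minus PABP1 IP, and the class medians there are -2.42 and -2.32; the median of all members in GFP IP minus input is -0.21 with spike-in scaling.

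Ndufaf1, the assembly factor among the members, helps to build the membrane arm. It stood at 3.03 and 3.19 in the GFP IP, 8.51 and 7.19 in the PABP1 IP and 7.66 and 6.84 in input, with the last 2 groups overlapping. It was lower in the GFP IP than in input (-1.22 ± 0.17, adjusted p = 0.00394), a call lost with spike-in scaling or the median of all probes. It did not pass in the PABP1 IP against input (0.11 ± 0.17, adjusted p = 0.614). There it was at -0.12 after cyclic loess and -0.06 after quantile normalization, but past and higher with spike-in scaling or normexp background. Ndufa4, once counted in complex I and later assigned to cytochrome c oxidase, followed the majority, at 53.0 and 51.8 in the GFP IP, 426 and 302 in the PABP1 IP and 160 and 147 in input. It was 6.85-fold lower in the GFP IP than in the PABP1 IP (-2.78 ± 0.21, adjusted p = 0.000518).

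Further Nduf genes on the array carry older names in the files and are reached only through their accession. Of 5 such genes all 5 were lower in the GFP IP than in the PABP1 IP (42.1% of all genes were). Ndufv3, an N module subunit, was at -3.02. Ndufaf4, an assembly factor of the Q module, was higher than input in both IPs, by 0.82 in the GFP IP (adjusted p = 0.00920) and 1.40 in the PABP1 IP (adjusted p = 0.00181). Of 12 other measured assembly factors 11 were lower in the GFP IP than in the PABP1 IP and 9 were lower in the GFP IP than in input (0 with spike-in scaling), with Tmem70 the 1 that was higher there (1.25, adjusted p = 0.00461), and Ecsit, the partner of Ndufaf1, at -0.84 (adjusted p = 0.0319; not past with spike-in scaling).

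The other respiratory complexes were read from a list of complex II to V genes, of which 37 were measured. Between the IPs 35 were lower in the GFP IP and 0 higher, with a median of -2.26, beside -2.31 for complex I. In the GFP IP against input 28 were lower and 1, Sdhc, was higher (0.84, adjusted p = 0.00891), with a median of -1.10, beside -1.22. With spike-in scaling 0 of the 37 were lower and 1 was higher there, with a median of -0.08. For the PABP1 IP against input, 28 were higher and 0 lower, with a median of 1.03, beside 1.25. The complex I genes were thus close to the other respiratory genes in all 3 counts. Sdha, the flavoprotein of complex II, did not pass in any comparison (0.14 between the IPs).

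Between the IPs 4 of 7 measured regulators of respiratory genes were lower in the GFP IP (57.1%, against 42.1% of all genes). There 1 was higher (14.3%, against 21.9%), and with spike-in scaling the counts were 4 and 0. Gabpa, an ETS-family activator of respiratory genes, was the higher one (1.49, adjusted p = 0.00292), and it also exceeded input in the GFP IP (1.24, adjusted p = 0.00769). In the GFP IP against input 3 regulators were higher (18.2% of all genes were), Gabpa, Tfb2m (1.47) and Nrf1 (0.55). Tfb1m was the 1 lower there (-1.22), where 37.1% of all genes were lower. Tfam, which packages and transcribes mitochondrial DNA, was lower in the GFP IP than in the PABP1 IP (-1.42, adjusted p = 0.000992) and higher in the PABP1 IP than in input (1.66, adjusted p = 0.00121).

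**Figure D4:**
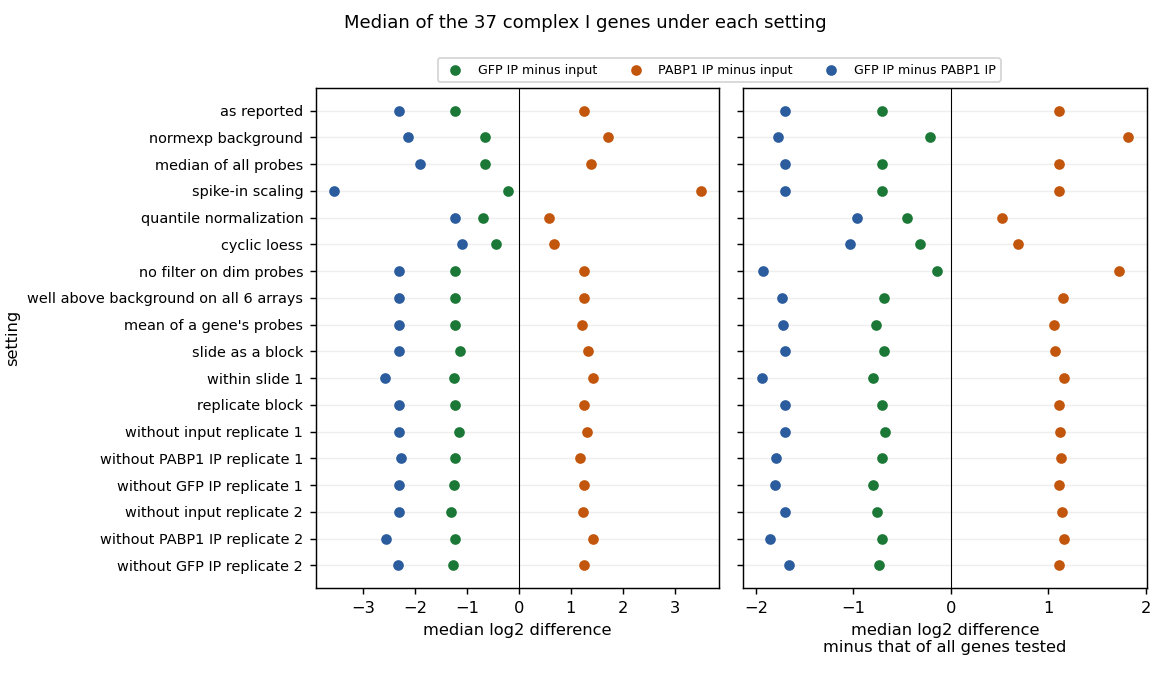
Median log2 difference of the 37 genes (left) and the same minus the median of all genes (right) as reported and under 17 alternative settings, by comparison. In the right panel GFP IP minus PABP1 IP stays between -0.96 and -1.94 and PABP1 IP minus input between 0.53 and 1.82, while GFP IP minus input runs from -0.15 to -0.80; in the left panel its median is -0.21 with spike-in scaling.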

How the data were processed

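The scanner files deposited for the 6 arrays hold, per the file headers, spot intensity and a background-subtracted processed signal from Agilent Feature Extraction 9.1.3.1. A table deposited by the authors holds group means of signal scaled to each array's median, per its header; it entered no test. The genome build behind the array is not given in the sources used here.

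Control and outlier spots were left out, log2 processed signals were averaged per probe, and each array's 75th percentile was subtracted. A probe was kept if both arrays of any 1 group had it well above background (21051 of 41174), with the brightest kept probe per gene (14993 genes). Accessions were named through RefSeq's gene table (22951 probes). limma 3.58.1 in R 4.3.3 (lmFit, eBayes) fitted the 3 groups on all 6 arrays with 3 residual degrees of freedom. Two-sided p-values were adjusted by Benjamini-Hochberg and called under 0.05. The script was tested on simulated data. Figures used matplotlib 3.10.9.

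Alternatives were normexp background (offset 50), the median of all probes, spike-in scaling (256 spike-in spots), quantile normalization, cyclic loess, other filters, the mean of a gene's probes, slide and replicate blocks, slide 1 alone, and each array left out.

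The members and lists were chosen with earlier results of these data known. Genes named are the core subunits (1 member is not reported here by name), the 5 most changed in each direction per comparison, those called against the majority, those whose probes disagree, Ndufaf1 and Ndufa4; further members are named to show their place in the complex and were chosen after their values were seen, as were the other respiratory, assembly and regulator genes named.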

Additional observations from a re-analysis of the deposited data

How the results depend on the processing

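The lower signal in the GFP IP than in the PABP1 IP was the steadiest result: 35 members were lower without any 1 array, and the median relative to all genes was -1.86 to -1.66, but -0.96 after quantile normalization and -1.04 after cyclic loess. There, 1 member was higher with the median of all probes, normexp background or the slide as a block, and 2 after cyclic loess or quantile normalization (0 without any 1 array). In the GFP IP against input 15 members were lower after cyclic loess or with the median of all probes (16 called in all), 0 with spike-in scaling (1 called in all, higher), and 17 to 28 without 1 array (18 to 29 in all), against 28. The relative median was -0.15 with no filter, -0.21 with normexp background, -0.31 after cyclic loess and -0.45 after quantile normalization, and -0.80 to -0.68 without 1 array. In the PABP1 IP against input 4 were lower after cyclic loess, 0 with spike-in scaling, and 1 with no filter, normexp background, the median of all probes, the slide as a block or slide 1 alone, and 0 to 1 without 1 array, against 2. Its relative median was 0.53 after quantile normalization, 0.69 after cyclic loess, 1.72 with no filter and 1.82 with normexp background (1.11 to 1.16 without 1 array). The Ndufs and Ndufv median minus that of the other families was -0.025 after cyclic loess and -0.018 after quantile normalization in the GFP IP against input (0.05 to 0.27 without 1 array). In the PABP1 IP against input it was -0.22 after cyclic loess and with the slide as a block, -0.033 after quantile normalization and -0.44 to -0.15 without 1 array. Between the IPs it was 0.015 after cyclic loess and -0.18 to 0.29 without 1 array. Signs turned with spike-in scaling in the GFP IP against input for Ndufa12 (0.20), Ndufs1 (0.18), Ndufs3 (0.20), Ndufs8 (0.57) and Ndufv2 (0.22), in the PABP1 IP against input for Ndufs1 (1.31) and Ndufv1 (1.72), and between the IPs for Ndufs1 (-1.13) and Ndufc2 (-0.83). In the GFP IP against input the sign turned for Ndufs8 with the median of all probes (0.12) and without GFP IP replicate 2 (0.0035, and -0.90 without GFP IP replicate 1). Ndufaf1 turned in the PABP1 IP against input after cyclic loess (-0.12), after quantile normalization (-0.061) and without PABP1 IP replicate 1 (-0.0094, and 0.23 without PABP1 IP replicate 2). The cause of these shifts was not tested, except that no filter changes the set of all genes, not the members' values.

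The scaling moved the all-gene median, in the order GFP IP minus input, PABP1 IP minus input, GFP IP minus PABP1 IP, by 1.02, 2.26 and -1.24 with spike-in scaling, by 0.56, 0.15 and 0.41 when all probes' median set the scale, by 0.40, -0.15 and 0.55 after cyclic loess and by 0.27, -0.07 and 0.34 after quantile normalization. Same-numbered replicates did not deviate together (correlations of -0.06, 0.20 and -0.65 for GFP IP with input, PABP1 IP with input and the 2 IPs), so the numbers were not taken as pairs. With a replicate block 25 members were lower and 1 higher in the GFP IP against input, 22 higher and 1 lower in the PABP1 IP against input, and 35 lower and 0 higher between the IPs. Crossing the numbers of the 2 IPs is the slide block, which gave 35 lower and 1 higher. Dim members such as Ndufs8 have the least signal over background.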

Other observations

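In the authors' deposited table of group means, 30 members had a single row. The GFP IP mean was below the PABP1 IP mean for 28 of them and above it for 2, Ndufc2 and Ndufs1. In the same deposited table Ndufc2 stood at 1381 in the GFP IP, 739 in the PABP1 IP and 409 in input. Against input, the authors' deposited GFP IP mean was below for 23 members and above for 7. From the scanner signals of all 37 members, 35 lay below input and 2 above on the scale of the 75th percentile, and 32 below and 5 above when scaled to the median of all probes. Among the 7, the ratio of the GFP IP to input in the authors' deposited table was 3.90 for Ndufs8, 3.34 for Ndufa8 and 3.19 for Ndufa6, genes that were at log2 differences of -0.45, -0.75 and 0.05 from the scanner signals and passed there in neither direction. The treatment of background in that table is not given beyond its header, and the cause of the difference was not tested.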
